A study of Mus musculus with 54 samples.

Results

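The complement genes C1qa, C1qb, C1qc, C3, C4b, Cfb, Cfp, C3ar1 and C5ar1 were followed in bulk RNA-seq of macrophages sorted from mouse brains without choroid plexuses. These 9 genes were taken by symbol from count tables of 33280 genes, in which each had 1 row, and their levels were compared by cell type, LPS challenge, repopulation and tdT state. The 54 libraries formed 18 groups of 3 mice and came from microglia (MG) and from subdural CNS-associated macrophages (sdCAMs), which live in the leptomeninges and around vessels. Wild-type (WT) and Ccr2-/- mice, which lack the chemokine receptor that lets monocytes leave the bone marrow, were each sampled in 3 states: untreated with PBS, vehicle (CTL) with LPS, and BLZ945 with LPS. BLZ945 inhibits the CSF1 receptor on which these macrophages depend, and the cells then return. Reporter mice (Ccr2CreERT2/CreERT2:R26tdT/tdT in the labels) all received BLZ945, and then PBS or LPS. Their MG, tdT+ sdCAMs and tdT- sdCAMs were sequenced separately, and each WT or Ccr2-/- mouse gave 1 MG and 1 sdCAM library. Tamoxifen at 2 mg on days 0, 2 and 4 turned on the tdT mark in cells that expressed Ccr2 in those days, so that a tdT+ sdCAM carries the mark of such an ancestor. Injections were given 8 weeks after treatment, and cells were taken 12 hours later.

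This layout limits what some contrasts can separate. In WT and Ccr2-/- mice the LPS groups also received vehicle, whereas their PBS groups were untreated, so LPS and vehicle cannot be told apart. BLZ945 was compared with CTL only under LPS. Reporter mice had no group without BLZ945, they carried the Cre driver on both Ccr2 alleles, and they were batch 2 of the labels, so they were compared only among themselves.

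Complement is a cascade of plasma and tissue proteins that tags targets for uptake. The classical pathway starts when C1q, built from the chains of C1qa, C1qb and C1qc, binds a surface, and it proceeds through C4 and C3. The alternative pathway amplifies C3 cleavage with factor B (Cfb) and is stabilised by properdin (Cfp), and the small fragments C3a and C5a signal through C3ar1 and C5ar1. MG are known as a main source of C1q in the brain, where C1q and C3 have been tied to the removal of synapses.

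On GRCm38 with GENCODE M21 all 9 genes lie on the minus strand. C1qa, C1qb and C1qc form a cluster on chromosome 4 that spans 136895917-136898803, 136880129-136886187 and 136889804-136893065. C3, C4b and Cfb lie on chromosome 17, at 57203970-57228136, 34728380-34743882 and 34856374-34862518, and Cfp lies on chromosome X at 20925454-20931555. C3ar1 is on chromosome 6 at 122847138-122856161 and C5ar1 on chromosome 7 at 16246743-16259540. The build used for counting was not settled by the sources, so these positions describe the genes and not the counted reads. Cfb shares 2246 exonic bases, 79.5% of its exons, with the readthrough model Gm20547 on the same strand, which has no row in the count tables. C4a, a near-identical copy of C4b, had 0 to 13 counts in a library, and reads that fit both copies could not be followed.

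2 promoter sequences from RefSeq (GRCm38.p6) are shown for the contrast in the LPS response of C3 and C1qb: C3 rose after LPS in all 7 cell populations tested and C1qb passed the call in none of them. Each is the 250 bases before the annotated start, written along the gene's strand, at chr17:57228137-57228386 for C3 and chr4:136886201-136886450 for C1qb. Capitals mark matches to the C/EBP motif TTNNGNAA, searched on both strands.
C3: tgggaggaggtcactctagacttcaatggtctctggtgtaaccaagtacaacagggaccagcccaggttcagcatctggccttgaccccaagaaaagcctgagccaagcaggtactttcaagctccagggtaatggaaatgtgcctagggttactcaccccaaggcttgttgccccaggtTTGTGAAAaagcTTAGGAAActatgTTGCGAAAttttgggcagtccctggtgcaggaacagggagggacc
C1qb: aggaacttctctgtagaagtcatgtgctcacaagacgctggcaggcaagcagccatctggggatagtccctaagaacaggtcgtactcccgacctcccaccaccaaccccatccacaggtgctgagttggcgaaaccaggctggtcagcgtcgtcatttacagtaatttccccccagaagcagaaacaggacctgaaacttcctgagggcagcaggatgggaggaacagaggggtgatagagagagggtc
The C3 window held the motif at 3 places and the C1qb window at none. Of 32851 promoters of this length in the table, 36.8% held it at least once and 2.61% at 3 or more places. The kappaB motif, the GAS motif (TTCNNNGAA) and the ISRE motif (GAAA, 2 free bases, GAAA), found in 3.9%, 7.02% and 2.98% of promoters, had no match in either sequence. The table held entries for 6 of the 9 genes. Of the other 4, C1qc held 1 C/EBP and 1 kappaB match, C5ar1 held 1 C/EBP match, and Cfp and C3ar1 held none. A match of letters is a description of the sequence and not a binding site.

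Library totals ran from 1705930 to 7699790 counts in WT sdCAMs and from 7497764 to 11330781 in MG of WT and Ccr2-/- mice. The Ccr2-/- sdCAM libraries held 7887891 to 10727796 counts, and the reporter sdCAM libraries held 2060240 to 9850283. Below, a level is given per library as CPM, its counts scaled to the total of the library. Folds come from edgeR's quasi-likelihood test with TMM scaling, and a gene was called when its Benjamini-Hochberg adjusted p was under 0.05 and its fold over 2. The labels were checked first. Ccr2 was at 42.96, 16.83 and 34.21 CPM in untreated WT sdCAMs and at 2.46 to 5.59 CPM in those of Ccr2-/- mice. It did not separate the genotypes in untreated MG, at 3.868 to 10.56 CPM in WT and 5.102 to 7.104 CPM in Ccr2-/- mice. In CTL and LPS sdCAMs it was at 0 to 0.2597 CPM in WT and 2.921 to 5.325 CPM in Ccr2-/- mice. The genotype check therefore rests on untreated sdCAMs. 4 MG markers and 4 sdCAM markers separated the resting populations. The sum of the sdCAM markers was 5545 to 13030 CPM in resting sdCAMs and 0.282 to 21.2 CPM in resting MG. The sum of the MG markers was 15120 to 23380 CPM in resting MG and 1171 to 6293 CPM in resting sdCAMs. In untreated WT sdCAMs the MG markers stood at 13.6%, 18.6% and 35.3% of the level in MG of the same mouse. In the other resting sdCAM libraries this share was 4.96% to 17.4%. Its part in the contrasts of sdCAMs with MG was not tested.

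3 sets of libraries stood apart. The acute phase gene Saa3 alone took 23% to 35.8% of all counts in CTL and LPS sdCAMs of WT mice and 14.5% to 28.3% in tdT- sdCAMs after LPS, but 0.68% to 2.74% in tdT+ sdCAMs after LPS and 5.88% to 6.71% in CTL and LPS sdCAMs of Ccr2-/- mice. The tdT shares are with the columns as named. With the 2 columns described below exchanged, they overlapped, at 2.74% to 28.3% in tdT- and 0.68% to 14.5% in tdT+ sdCAMs. Where that share is large, the scaling matters: TMM moved the median log2 difference of all genes by 1.47 against library totals in the LPS contrast of WT sdCAMs and by 1.79 in the WT contrast of sdCAMs with MG after LPS. The tdT+ library of reporter mouse 5 after LPS carried MG markers at 84% of the level in MG of the same mouse, against 3.88% and 9.58% in the tdT+ libraries of mice 1 and 7. The index numbers of 2 reporter columns after LPS, tdT- of mouse 1 and tdT+ of mouse 7, were crossed between labels and column names. With the columns as named, 2 of 24 mice held libraries of both kinds by sex-linked genes, and with the pair exchanged 0 did. Member calls in tdT results after LPS are therefore given both ways. Other tdT values after LPS are with the columns as named unless stated. The 5 neutrophil markers summed to 129 to 1121 CPM in CTL and LPS sdCAMs of WT mice, with Retnlg and Ly6g at 0. With the columns as named they summed to 268 to 1422 CPM in tdT- sdCAMs after LPS, with Retnlg, Ly6g and Cxcr2 at 0. The 4 monocyte markers summed to at most 99.8 CPM in any library. The part of these differences in the results below was not tested.

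**Figure D1:**
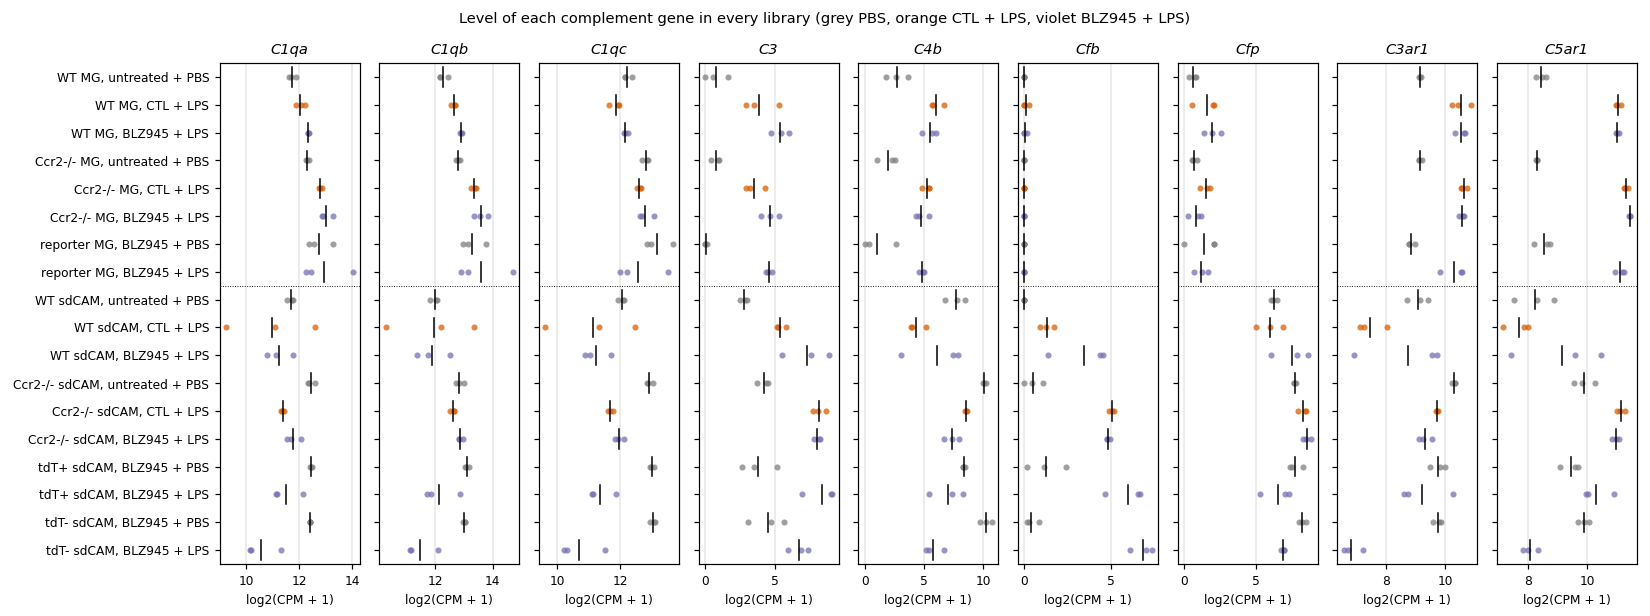
Level of each of the 9 genes in all 54 libraries, as log2(CPM + 1), in 18 groups of 3 (points; black ticks are group means; grey PBS, orange CTL with LPS, violet BLZ945 with LPS). The C1q chains were high in MG and sdCAMs alike, Cfb was at 0 in nearly all MG libraries, and Cfp stayed at or below 4.84 CPM in MG.

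Without LPS the C1q chains were the most abundant complement transcripts and were about level in the 2 cell types. Per length, in untreated Ccr2-/- mice, C1qb was at 6490 ± 295 RPKM in MG and 6760 ± 662 RPKM in sdCAMs (SD, n = 3). C1qa was at 4910 ± 147 and 5350 ± 610 RPKM, and C1qc at 3700 ± 249 and 4030 ± 301 RPKM. The order of the chains was the same in both cell types, with gaps larger than their spread. In MG the receptors came next, with C3ar1 at 133 ± 4.94 and C5ar1 at 123 ± 1.26 RPKM. The gap between these 2 levels was a little larger than their spread. C4b (0.577 ± 0.346 RPKM), Cfp (0.366 ± 0.118 RPKM) and C3 (0.144 ± 0.0697 RPKM) were near the floor in MG, within each other's spread for C4b and Cfp, and Cfb was at 0. In sdCAMs C5ar1 (375 ± 95 RPKM) and C3ar1 (293 ± 13.9 RPKM) were within their spread. Below them stood C4b at 195 ± 20.2 RPKM, Cfp at 121 ± 5.07 RPKM, C3 at 3.39 ± 0.977 RPKM and Cfb at 0.17 ± 0.201 RPKM.

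C4b, Cfp and C3 were the members called in all 4 contrasts of resting sdCAMs with MG, and no C1q chain was called in any. Among genes tested, 15% were called between sdCAMs and MG of untreated Ccr2-/- mice, and 6 of the 9 complement genes were, all higher in sdCAMs. In untreated WT mice 17.1% of genes were called and 3 of the 9 were. The share was 8.53% for tdT+ sdCAMs against MG of reporter mice given PBS, with 4 of 9 called, and 6.38% for tdT- sdCAMs, again with 4 of 9. The median log2 difference of the 9 genes in these 4 contrasts was 1.63, 0.29, 0.97 and 1.33, against 0, 0.03, 0.07 and 0.08 over all genes.

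C4b, which acts after C1q in the classical pathway, had 1225, 995 and 1117 CPM in untreated Ccr2-/- sdCAMs and 4.88, 3.90 and 1.08 CPM in MG. In WT mice it had 109, 225 and 364 CPM in sdCAMs and 11.3, 2.55 and 5.12 CPM in MG. The cell types did not overlap in either genotype. Its log2 difference was 8.40 (SE 0.452, adjusted p = 9.22e-11) in Ccr2-/- and 5.45 (SE 0.782, adjusted p = 0.000173) in WT mice, and in reporter mice given PBS it was 7.51 for tdT+ and 9.45 for tdT- sdCAMs.

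Cfp encodes properdin, a positive regulator of the alternative pathway. Untreated Ccr2-/- sdCAMs had 220, 206 and 204 CPM and WT sdCAMs 74.1, 66.5 and 89.7 CPM, whereas no MG library of any group went above 4.84 CPM. Its log2 difference was 8.36 in Ccr2-/- (adjusted p = 7.02e-12), 7.34 in WT (adjusted p = 4.99e-06), 6.73 in tdT+ and 7.14 in tdT- sdCAMs. Cfp was the gene of the set with the widest gap between the cell types in WT mice.

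C3, the component on which all activation routes converge, was low in both cell types at rest. It had 21.7, 18.7 and 11.9 CPM in untreated Ccr2-/- sdCAMs and 0.325, 0.928 and 0.963 CPM in MG, with a log2 difference of 4.56 (SE 0.542, adjusted p = 3.25e-06). In WT mice the values were 6.23, 6.81 and 4.67 CPM in sdCAMs and 2.13, 0.509 and 0 CPM in MG, and the log2 difference of 3.16 (adjusted p = 0.0214) lost its call without sdCAM mouse 9 or 14 or without MG mouse 14 or 15 (adjusted p = 0.0582 to 0.0919). Reporter MG given PBS had 1, 0 and 0 counts of C3, which made it at least 54.1-fold higher in tdT+ and at least 88.7-fold higher in tdT- sdCAMs, with a floor of 3 counts per library.

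The receptors differed less. C3ar1 had 1293, 1193 and 1300 CPM in untreated Ccr2-/- sdCAMs and 598, 561 and 561 CPM in MG. C5ar1 had 751, 1230 and 911 CPM in sdCAMs and 313, 319 and 318 CPM in MG. Both were called in Ccr2-/- mice, with log2 differences of 1.16 (SE 0.121, adjusted p = 6.44e-07) and 1.63 (SE 0.150, adjusted p = 1.25e-07) and no overlap. In WT mice the cell types overlapped for both receptors, at 0.29 (95% interval -0.41 to 1.00) and 0.16 (-0.62 to 0.93). In reporter mice C5ar1 was called for tdT- sdCAMs at 1.33 (adjusted p = 0.0155), a call lost without the MG library of mouse 174 or the tdT- library of mouse 175 or 177, and C3ar1 was called in neither sdCAM kind.

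The C1q chains passed the call in none of the 4 contrasts. In untreated Ccr2-/- mice the log2 difference was 0.15 (-0.15 to 0.45) for C1qa, 0.08 (-0.19 to 0.36) for C1qb and 0.15 (-0.12 to 0.41) for C1qc, and no bound was 0.5 or more from 0. The WT intervals were wider, at -0.92 to 1.57 for C1qa. Cfb had 3, 9 and 0 counts in untreated Ccr2-/- sdCAMs and 0 in MG. Its call there (at least 1.5-fold, adjusted p = 0.0205) was lost without either of 2 MG libraries or without the sdCAM library with 9 counts. Where bulk levels differ, more cells of a kind in the sort and more RNA per cell cannot be told apart.

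**Figure D2:**
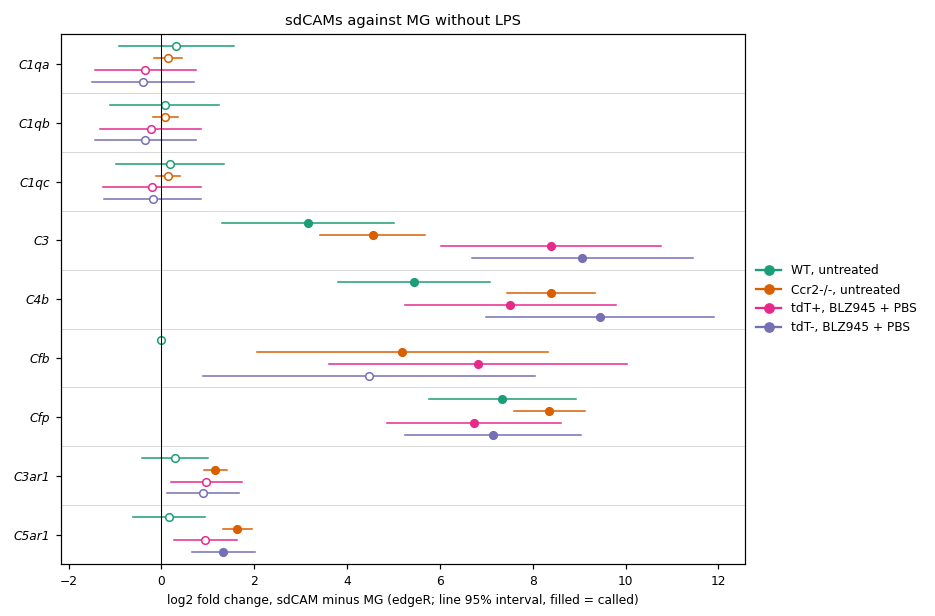
Log2 difference of sdCAMs from MG without LPS in 4 contrasts, with 95% intervals (filled points were called). C4b, Cfp and C3 lie to the right in every contrast, and the intervals of C1qa, C1qb and C1qc include 0 in all of them. Cfb is drawn at 0 for WT mice, where both cell types had 0 counts.

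In MG, LPS raised C5ar1, C3ar1, C4b and C3 in both WT and Ccr2-/- mice. Of genes tested, 16.7% were called in WT and 19.4% in Ccr2-/- MG, and 4 of 8 complement genes tested were called in each, all higher. Cfb had too few counts to be tested in MG: it was at 0 in all of them except CTL and LPS mouse 1 (2 counts) and BLZ945 and LPS mouse 12 (1 count), both WT.

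C5ar1, the receptor for C5a, was the most uniform of these. It went from 359, 312 and 390 CPM to 2013, 2274 and 2073 CPM in WT MG and from 313, 319 and 318 CPM to 2452, 2514 and 2654 CPM in Ccr2-/- MG. No LPS library came near a PBS library. The log2 fold change was 2.49 (SE 0.128, adjusted p = 2.94e-07) in WT and 2.94 (SE 0.117, adjusted p = 1.33e-09) in Ccr2-/- MG. C3ar1 rose from 586, 553 and 571 CPM to 1875, 1217 and 1401 CPM in WT MG, by 1.304 on the log2 scale (SE 0.169, adjusted p = 0.000205), and by 1.40 in Ccr2-/- MG (SE 0.119, adjusted p = 1.24e-06).

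C4b and C3 rose from close to nothing. C4b in WT MG went from 11.3, 2.55 and 5.12 CPM to 50.1, 104 and 53.02 CPM, a log2 fold change of 3.36 (SE 0.495, adjusted p = 0.000459), and in Ccr2-/- MG it rose by 3.44 (SE 0.427, adjusted p = 3.21e-05). C3 in WT MG went from 2.13, 0.509 and 0 CPM to 36.7, 6.40 and 9.95 CPM, by 4.30 on the log2 scale (SE 0.883, adjusted p = 0.00357), and in Ccr2-/- MG it rose by 3.82 (SE 0.571, adjusted p = 0.000155). The groups did not overlap for either gene, although C3 varied widely among the LPS libraries of WT MG.

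C1q moved less, with log2 fold changes from -0.47 to 0.51 in WT and Ccr2-/- MG. In Ccr2-/- MG, C1qb went from 7067, 6745 and 7387 CPM to 11010, 10790 and 9839 CPM, a log2 fold change of 0.51 (adjusted p = 0.00856) that was under the fold limit. C1qc was lower in WT MG after LPS by 0.47 (adjusted p = 0.0117), also under the limit. In reporter MG, where 1.08% of genes were called, 2 of the 8 genes tested were called. C3 went from 1, 0 and 0 counts to 21.8, 18.9 and 25.5 CPM (at least 72.7-fold higher, adjusted p = 0.0402), and C5ar1 from 299, 435 and 401 to 1967, 2319 and 2447 CPM (2.27, SE 0.344, adjusted p = 0.0367). Both groups were far apart, yet each call was lost in 5 of 6 fits that left out 1 library, with adjusted p from 0.0695 to 0.246. C1qa and C1qb of reporter mouse 1 MG stood at 16990 and 26840 CPM after LPS, against 5620 and 9019 CPM in mouse 5.

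In sdCAMs LPS raised C3 in all 4 populations and Cfb in the 3 in which Cfb was tested, while C4b fell past the call in Ccr2-/- and tdT- sdCAMs. The share of genes called was 6.32% in WT sdCAMs (1 of 8 complement genes tested), 21.5% in Ccr2-/- sdCAMs (5 of 9), 13.4% in tdT+ sdCAMs (3 of 9) and 26.5% in tdT- sdCAMs (6 of 9). The median log2 fold change of the complement genes was 1.14, -0.08, -1.13 and -0.82, against -0.07, -0.05, 0.02 and 0.04 over all genes.

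C3 in Ccr2-/- sdCAMs went from 21.7, 18.7 and 11.9 CPM to 392, 200 and 267 CPM, a log2 fold change of 4.18 (SE 0.303, adjusted p = 7.39e-07). In WT sdCAMs it went from 6.23, 6.81 and 4.67 CPM to 33.0, 36.03 and 53.28 CPM, a log2 fold change of 4.17 (SE 0.557, adjusted p = 0.00362), or 2.78 on library totals. The tdT+ sdCAMs gained 4.33 on the log2 scale (SE 0.803, adjusted p = 0.00249) and the tdT- sdCAMs 2.77 (SE 0.748, adjusted p = 0.0123). With the 2 columns exchanged these values were 3.88 and 3.34, both still called. The LPS and PBS libraries did not overlap in any of the 4.

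Cfb, the protease subunit of the alternative C3 convertase, was absent or nearly so at rest. It went from 3, 9 and 0 counts to 35.2, 28.8 and 31.8 CPM in Ccr2-/- sdCAMs, a log2 fold change of 6.17 (SE 0.633, adjusted p = 1.33e-05). In tdT- sdCAMs it went from 0.103, 0.203 and 0.762 CPM to 130, 68.2 and 161 CPM, by 9.08 on the log2 scale (SE 1.054, adjusted p = 1.92e-05). In tdT+ sdCAMs it went from 4.21, 0.116 and 1.18 CPM to 101, 24.1 and 94.7 CPM, by 5.07 (SE 0.861, adjusted p = 0.00139). The lowest of these LPS libraries, tdT+ of mouse 5, was the one with MG markers at 84%. With the columns exchanged Cfb was called in both, at 8.73 in tdT- and 5.82 in tdT+ sdCAMs. In WT sdCAMs Cfb had 0 counts at rest and 18, 2 and 9 counts in the CTL and LPS libraries, too few to be tested.

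C4b fell in Ccr2-/- sdCAMs from 1225, 995 and 1117 CPM to 352, 378 and 395 CPM, a log2 fold change of -1.42 (SE 0.244, adjusted p = 0.000779). It fell in tdT- sdCAMs from 865, 1245 and 1728 CPM to 36.2, 42.5 and 105 CPM (-3.64, SE 0.597, adjusted p = 0.000357). With the columns exchanged its log2 fold change there was -2.87 (adjusted p = 0.00674). In WT sdCAMs it stood at 109, 225 and 364 CPM before and 13.64, 36.03 and 14.88 CPM after, without overlap. The log2 fold change of -1.84 missed the threshold with TMM (adjusted p = 0.153). On library totals, where the median of all genes was itself -1.54, it was -3.44 (adjusted p = 0.00381). In tdT+ sdCAMs the value was -1.14 (adjusted p = 0.183) as named and -2.07 (adjusted p = 0.0351) with the columns exchanged.

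The C1q chains moved unequally in sdCAMs. C1qc in Ccr2-/- sdCAMs fell from 7343, 8440 and 7558 CPM to 3086, 3494 and 3256 CPM, a log2 fold change of -1.10 (SE 0.117, adjusted p = 1.88e-05). C1qa went from 5118, 6294 and 5294 CPM to 2544, 2801 and 2653 CPM, by -0.92 (adjusted p = 0.000429), just under the fold limit. C1qb had 6720, 8138 and 7212 CPM before and 5857, 6500 and 6523 CPM after, with a log2 fold change of -0.08 (95% interval -0.32 to 0.17). In tdT+ sdCAMs C1qb was at 8443 to 9292 CPM with PBS and 3347 to 7525 CPM after LPS. With no filter on low counts it was called there (-1.17, adjusted p = 0.0225), but not in tdT- sdCAMs (-0.68, adjusted p = 0.235). With the columns exchanged its tdT+ value was -1.05 (adjusted p = 0.238). C1qc also fell in tdT+ (-1.85, adjusted p = 0.0128) and tdT- sdCAMs (-1.30, adjusted p = 0.0403). With the columns exchanged the fold changes were the same, at -1.85 and -1.30, but both missed the threshold (adjusted p = 0.052 and 0.129), and left-out libraries ended them too: adjusted p was 0.0572 and 0.0603 without the tdT+ LPS library of mouse 1 or 7, and 0.0748 to 0.111 without the tdT- LPS library of mouse 1 or 7 or any tdT- PBS library. In WT sdCAMs the chains scattered after LPS, with C1qb at 1244, 10440 and 4705 CPM. Their log2 fold changes of 1.33 (C1qa), 1.91 (C1qb) and 0.96 (C1qc) turned to -0.13, 0.43 and -0.50 with library totals, and none was called.

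The receptors parted in sdCAMs. C5ar1 rose in Ccr2-/- sdCAMs from 751, 1230 and 911 CPM to 2050, 2495 and 2219 CPM (1.37, SE 0.174, adjusted p = 7.96e-05), whereas C3ar1 went from 1293, 1193 and 1300 CPM to 841, 828 and 860 CPM (-0.43, adjusted p = 0.0273, under the fold limit). In tdT- sdCAMs both fell. C3ar1 went from 766, 923 and 898 CPM to 104, 94.4 and 149 CPM (-2.11, SE 0.387, adjusted p = 0.000832), and C5ar1 from 839, 1076 and 945 CPM to 260, 230 and 325 CPM (-1.01, SE 0.310, adjusted p = 0.024). With the columns exchanged neither was called in tdT- sdCAMs (adjusted p = 0.0549 and 0.466). C5ar1 also lost its call without the tdT- LPS library of mouse 1 or without the tdT- PBS library of mouse 175 or 177. With the columns as named it missed the call with DESeq2 (-0.82), median-of-ratios scaling (-0.82, adjusted p = 0.0579) and only the groups compared (-0.96). On library totals the median log2 fold change of all genes in tdT- sdCAMs was itself -0.76. In WT sdCAMs C3ar1 had 418, 575 and 688 CPM before and 139, 153 and 265 CPM after, without overlap, and was not called with TMM (-0.14, adjusted p = 0.900) or with library totals (-1.59, adjusted p = 0.120). On library totals the median log2 fold change of all genes was itself -1.54 there. The share of all genes without overlap in CPM was not taken.

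Cfp, like C1qa and C1qb, passed the call for LPS in no population. In Ccr2-/- sdCAMs it went from 220, 206 and 204 CPM to 341, 250 and 357 CPM (0.74, adjusted p = 0.01, under the fold limit), and in tdT- sdCAMs from 254, 358 and 294 CPM to 108, 123 and 126 CPM (-0.51, adjusted p = 0.421, or -1.34 with library totals, adjusted p = 0.0229). In tdT+ sdCAMs it went from 168, 314 and 185 CPM to 134, 37.7 and 155 CPM (-1.26, adjusted p = 0.0789). In CPM the LPS and PBS libraries did not overlap in these 3 populations, higher after LPS in the first and lower in the other 2. On library totals the median log2 fold change of all genes was -0.19 in Ccr2-/-, -0.76 in tdT- and 0.28 in tdT+ sdCAMs. The share of all genes without overlap in CPM was not taken, so the lack of overlap is a description only.

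**Figure D3:**
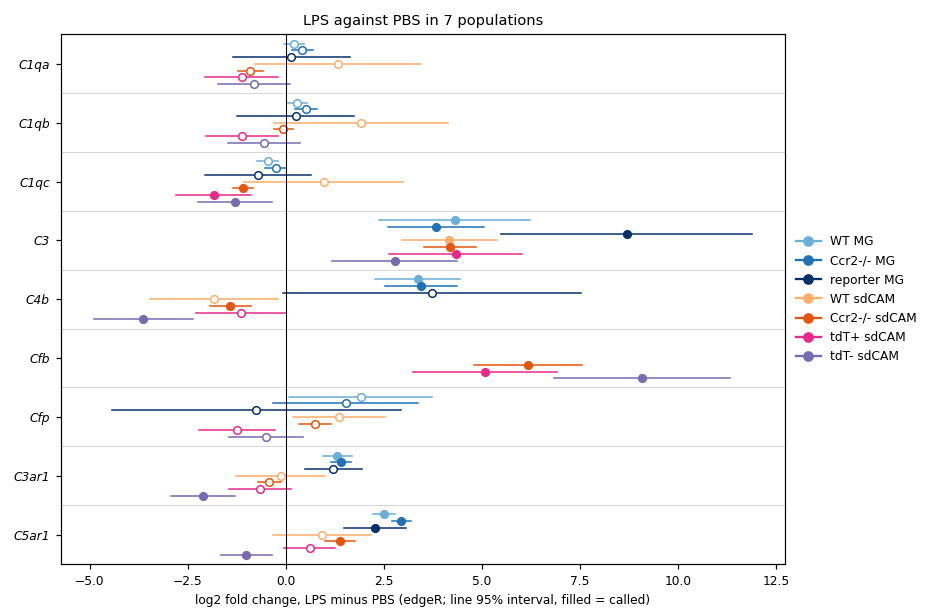
Log2 fold change of LPS against PBS for each gene in 7 cell populations, with 95% intervals (filled points were called). C3 is right of 0 in all 7, C4b lies right of 0 in MG and left of 0 in sdCAMs, and C3ar1 lies right of 0 in MG and left of 0 in sdCAMs.

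The difference between the cell types in their LPS response was tested as an interaction. In Ccr2-/- mice 6.88% of genes were called and 4 of the 9 complement genes were, all with a lower response in sdCAMs: C4b by -4.82 (SE 0.505, adjusted p = 4.71e-06), C3ar1 by -1.80 (SE 0.171, adjusted p = 1.58e-06), C5ar1 by -1.53 (SE 0.208, adjusted p = 7.45e-05) and C1qa by -1.30 (SE 0.201, adjusted p = 0.00029). In WT mice 1.32% of genes were called and C4b was the 1 member called, at -5.28 (SE 0.979, adjusted p = 0.0118), a call lost without MG of mouse 15 (adjusted p = 0.0519). C3ar1 and C5ar1 were at -1.54 (adjusted p = 0.112) and -1.65 (adjusted p = 0.118) in WT mice, and both were called with library totals. On that scale the median of all genes in this interaction was itself -1.69, against -0.23 with TMM. The library-total calls therefore cannot be told apart from this shift. The interaction of C3 was 0.40 (-1.22 to 2.02) in Ccr2-/- and -0.20 (-2.22 to 1.82) in WT mice, and these intervals are wide.

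After LPS the contrast between the cell types differed from that at rest for several members. Among CTL and LPS libraries of Ccr2-/- mice 18.4% of genes were called and 5 of the 9 were. C3 (4.96), C4b (3.58), Cfp (7.61) and Cfb (at least 111-fold) were higher in sdCAMs, and C1qa was lower (-1.15, SE 0.143, adjusted p = 5.28e-06). In WT mice 35.4% of genes were called and 7 of the 9 were. Of these, Cfp (6.70), Cfb (at least 4.38-fold), C3ar1 (-1.24) and C5ar1 (-1.50) were also called with library totals. On that scale the median log2 difference of all genes was itself -1.92, so calls as lower cannot be told apart from this shift. C3ar1 was at -0.98, under the fold limit, both with DESeq2 and with median-of-ratios scaling. C3 (2.95) was not called with library totals (1.20, adjusted p = 0.172). C1qb (1.60) and C1qc (1.53) were called as higher in sdCAMs, but turned to -0.23 and -0.31 with library totals, lost the call with the mouse as a block (adjusted p = 0.192 and 0.169), and came to 0.53 and 0.50 without sdCAM mouse 4, whose C1qb was 10440 CPM. Without any 1 of the MG libraries both also lost the call (adjusted p = 0.0936 to 0.116), and C3ar1 did without MG mouse 1 (adjusted p = 0.0504). With the immediate early gene mark of the labels as a covariate, Cfp (6.87) was the 1 member called in place of 7. C3 (3.24, adjusted p = 0.0749) and Cfb (7.67, adjusted p = 0.0857) kept or raised their log2 differences, and C1qb (0.90), C1qc (0.57), C3ar1 (-0.79) and C5ar1 (-0.81) were smaller in size. All 3 CTL and LPS sdCAM libraries of WT mice carry that mark and no MG library does.

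After LPS the counts of C1qc were lower beside those of C1qb in each population, without overlap but with no ratio test under 0.05. Because the 3 chains share 1 assembly, the 2 were compared as a ratio within the library, which needs no scaling. This pair, and the 2 below, were chosen after the values were seen. The ratio was 0.89 to 1.21 in the 21 PBS libraries and 0.43 to 0.65 in the 21 LPS libraries compared with them, and the ranges did not overlap in any of the 7 populations. On the log2 scale it was lower by 0.76 (SE 0.07) in WT MG, 0.78 (SE 0.04) in Ccr2-/- MG, 0.88 (SE 0.1) in reporter MG, 0.87 (SE 0.14) in WT sdCAMs, 1.02 (SE 0.04) in Ccr2-/- sdCAMs, 0.67 (SE 0.12) in tdT+ and 0.81 (SE 0.09) in tdT- sdCAMs.

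A two-sided exact permutation test gave p = 0.1 in each population, the smallest that 3 against 3 libraries allow, and 0.111 after adjustment over the 21 ratio tests. The share of genes whose ratio to C1qb was lower after LPS without overlap was 34.3% in WT MG, 52.7% in Ccr2-/- MG, 14% in reporter MG, 26.6% in WT sdCAMs, 21.5% in Ccr2-/- sdCAMs, 3.26% in tdT+ and 8.9% in tdT- sdCAMs. Such a ratio in all 7 was shared by 52 of 5163 genes, or 1.01%. The log2 difference of the C1qa to C1qb ratio was -0.09 to -0.10 in the 3 MG populations, without overlap in Ccr2-/- and reporter MG and with overlap in WT MG. It was -0.67 in WT, -0.84 in Ccr2-/- and -0.3 in tdT- sdCAMs, each without overlap, and 0.01 in tdT+ sdCAMs, with overlap. The ratio of C5ar1 to C3ar1 was higher after LPS in all 7 populations without overlap, by 1.07 to 1.83 on the log2 scale, again with an exact permutation p = 0.1 in each. The share of genes whose ratio to C3ar1 was higher without overlap was 1.87% in WT MG, 2.73% in Ccr2-/- MG, 1.19% in reporter MG, 23.6% in WT sdCAMs, 42.9% in Ccr2-/- sdCAMs, 24.8% in tdT+ and 75.6% in tdT- sdCAMs. In all 7 it was 24 of 5163 genes, or 0.465%.

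**Figure D4:**
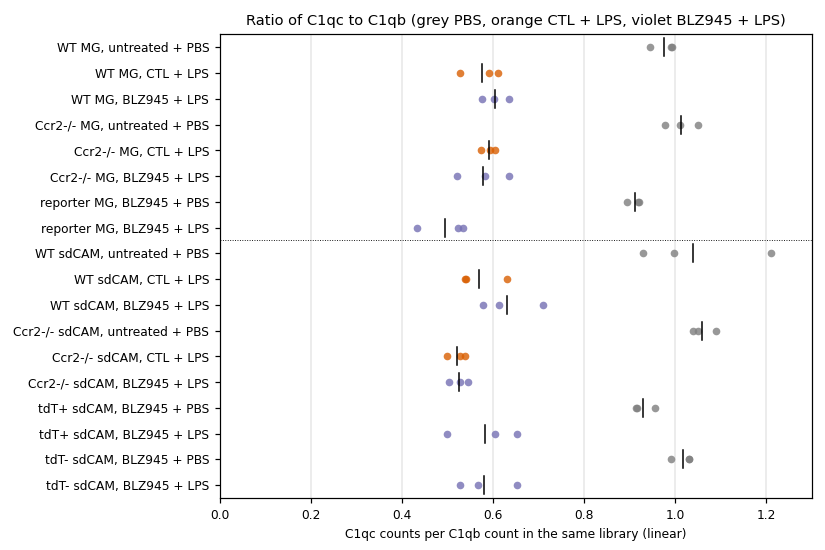
Counts of C1qc per count of C1qb in each library, by group, on a linear axis (points; ticks are geometric means). PBS libraries sit between 0.89 and 1.21 and LPS libraries between 0.43 and 0.71, the latter including the BLZ945 and LPS libraries of WT and Ccr2-/- mice.

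Repopulated cells were compared with CTL cells under LPS to ask whether macrophages that had returned after BLZ945 answer alike. No member was called in any of the 4 contrasts by edgeR. The share of genes called was 0.0763% in WT MG, 0.0173% in Ccr2-/- MG, and 0% in both sdCAM contrasts, while 776, 769, 758 and 998 genes had an unadjusted p under 0.05 in WT MG, Ccr2-/- MG, WT sdCAMs and Ccr2-/- sdCAMs. DESeq2 called 1 member, in Ccr2-/- sdCAMs.

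That member was C4b, at 352, 378 and 395 CPM in CTL and 101, 255 and 168 CPM in BLZ945 sdCAMs of Ccr2-/- mice. The groups did not overlap, and the log2 difference of -1.11 (95% interval -1.63 to -0.58) had an adjusted p of 0.222 with edgeR and 0.00221 with DESeq2. C3 in MG leaned upward in both genotypes, at 1.29 (-0.15 to 2.72) in WT and 1.25 (0.28 to 2.22, adjusted p = 0.686) in Ccr2-/- mice, with overlap in each. C1qa in WT MG was at 3736, 4788 and 4279 CPM in CTL and 5349, 5160 and 5234 CPM in BLZ945 libraries, a log2 difference of 0.34 (0.08 to 0.60, adjusted p = 0.626). For C5ar1 in WT MG the interval was -0.25 to 0.28, the narrowest of the receptor intervals there.

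WT sdCAMs after BLZ945 and LPS were split. Mice 8 and 11 had C3 at 183 and 454 CPM, C4b at 180 and 237 CPM, C3ar1 at 843 and 749 CPM and C5ar1 at 1418 and 776 CPM. Mouse 12 had 43.4, 7.17, 121 and 170 CPM, which for C3 and C5ar1 lies inside the range of the CTL and LPS group and for C4b and C3ar1 below it. Saa3 took 21% of the counts of mouse 12 and 2.39% and 1.79% of those of mice 8 and 11, and MG markers stood at 24.7%, 31.3% and 7.2% of the MG level in mice 8, 11 and 12. The log2 differences of C3 (0.95, -0.11 to 2.01) and C4b (1.00, -0.61 to 2.60) were 2.47 (adjusted p = 0.0576) and 2.72 (adjusted p = 0.0564) with library totals. On that scale the median log2 difference of all genes was itself 1.41. Mouse 12 and every CTL and LPS library of WT sdCAMs carry the immediate early gene mark of the labels, and mice 8 and 11 do not. With the mark as a covariate C3 was at 0.78 and C4b at -0.61. With ComBat-seq on the mark they were at 0.11 and -1.35. Neither gene was called either way.

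tdT+ and tdT- sdCAMs of BLZ945-treated reporter mice were compared to set cells with a Ccr2-expressing ancestor beside those without the mark. After PBS 0.0236% of genes were called and no member was, by edgeR or DESeq2, with 566 genes at an unadjusted p under 0.05. C4b had the smallest p, with 311, 316 and 358 CPM in tdT+ and 865, 1245 and 1728 CPM in tdT- sdCAMs. The 2 kinds did not overlap, and the log2 difference of -1.94 (-3.12 to -0.76) had an adjusted p of 0.624. Cfb was at 4.21, 0.116 and 1.18 CPM against 0.103, 0.203 and 0.762 CPM, with overlap (2.35, adjusted p = 0.948). With no filter on low counts C4b (adjusted p = 0.000263) and Cfb (adjusted p = 0.0307) were both called. The C1q chains were at -0.01 to 0.12, with intervals of about 1 on either side.

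After LPS 10.6% of genes were called and 2 members were, both receptors and both higher in tdT+ sdCAMs. C3ar1 had 427, 1231 and 395 CPM in tdT+ and 104, 94.4 and 149 CPM in tdT- sdCAMs of mice 1, 5 and 7, a log2 difference of 1.51 (SE 0.380, adjusted p = 0.0174). C5ar1 had 992, 1911 and 1056 CPM against 260, 230 and 325 CPM, a difference of 1.24 (SE 0.311, adjusted p = 0.0178). Neither receptor overlapped between the kinds in CPM, but on library totals the median log2 difference of all genes was itself 1.14. The share of all genes without overlap was not taken. For both receptors the highest tdT+ library was the one of mouse 5 that carried MG markers.

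These calls rested on how 2 columns were read. With the columns of tdT- mouse 1 and tdT+ mouse 7 exchanged, C3ar1 was at 0.97 (adjusted p = 0.810) and C5ar1 at 0.55 (adjusted p = 0.935), and 0 of 12708 genes were called, with 816 at an unadjusted p under 0.05. With mouse 5 left out as well, the differences were 0.06 and 0.01. With the columns as named, leaving out tdT+ mouse 5 gave 0.89 (adjusted p = 0.059) and 0.97 (adjusted p = 0.0414, under the fold limit), and leaving out tdT- mouse 1 gave C3ar1 an adjusted p of 0.0516. Fitting only the groups compared gave adjusted p = 0.132 for C3ar1 and 0.166 for C5ar1.

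The other members did not pass. C3 had 529, 115 and 508 CPM in tdT+ and 113, 58.4 and 156 CPM in tdT- sdCAMs, with overlap (0.88, adjusted p = 0.486). Cfb was at 101, 24.1 and 94.7 CPM against 130, 68.2 and 161 CPM (-1.66, adjusted p = 0.171), and Cfp was at 134, 37.7 and 155 CPM against 108, 123 and 126 CPM (-1.16, adjusted p = 0.122). With the columns exchanged C3, Cfb and Cfp were at -0.13, -0.57 and -0.89, and none was called. The C1q chains were at -0.26 to -0.57 with TMM and at 0.62 to 0.92 with library totals, so their direction followed the scaling, which shifted the median of all genes by 1.02 here. The interaction of tdT state with LPS called 5.17% of genes and C5ar1 alone among the 9, at 1.61 (SE 0.436, adjusted p = 0.0428). It was 0.93 (adjusted p = 1) with the columns exchanged and missed the threshold in 10 of the 12 fits that left out 1 library.

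**Figure D5:**
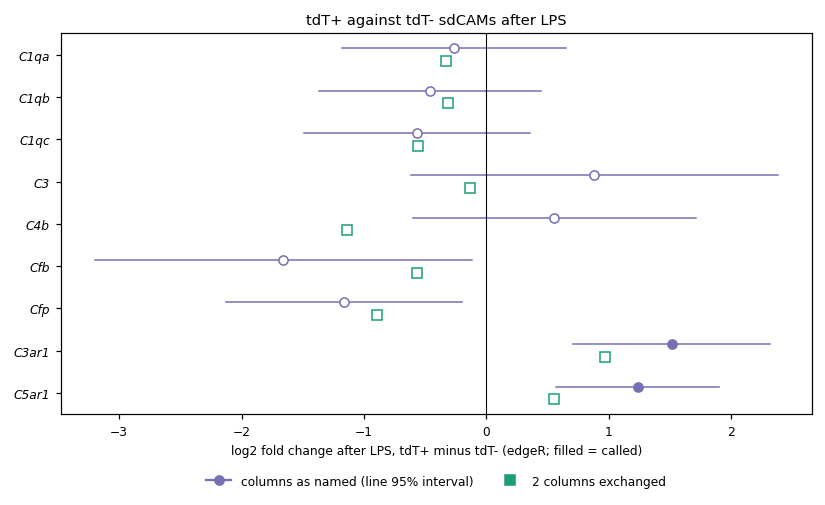
Log2 difference of tdT+ from tdT- sdCAMs after LPS for each gene, with the columns as named (with 95% intervals) and with 2 columns exchanged. C3ar1 moves from 1.51 to 0.97 and C5ar1 from 1.24 to 0.55 when the columns are exchanged.

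WT and Ccr2-/- mice were compared only in their responses. No member, and 0% of genes, was called by edgeR in the interaction of genotype with LPS or with BLZ945 in MG or sdCAMs, while 502, 493, 1792 and 1332 genes had an unadjusted p under 0.05 in these 4 tests. DESeq2 called no member either. In MG the smallest p for LPS was that of C5ar1, whose response differed by 0.49 (0.18 to 0.80, adjusted p = 1). In sdCAMs the LPS response of C1qa differed by -2.04 (-3.75 to -0.33, adjusted p = 0.288), and without a filter on low counts it was called (-2.21, adjusted p = 0.0282). For C3 the interval of the LPS interaction in sdCAMs was -1.07 to 1.46, which leaves room for unequal responses.

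Beyond the 9 genes, a list of 47 further complement genes held regulators, receptors and lectins, of which 11 to 27 were tested in a contrast. At rest 6 were called higher and 1 lower in sdCAMs of untreated WT mice, of 25 tested, where 17.1% of all genes were called. In untreated Ccr2-/- mice 10 were higher and 1 lower of 24 tested (15% of all genes called). For tdT+ sdCAMs the numbers were 7 and 1 of 24 (8.53%), and for tdT- sdCAMs 7 and 0 of 24 (6.38%). The collectin Colec12 was at least 425-fold higher in WT and at least 1680-fold higher in Ccr2-/- sdCAMs, and the ficolin Fcna at least 157-fold and 546-fold. C2, the partner of C4 in the classical C3 convertase, was at least 306-fold higher in Ccr2-/- sdCAMs. LPS raised Cd55, a membrane protein that dissolves C3 convertases, by 3.99 on the log2 scale in WT and 2.84 in Ccr2-/- sdCAMs, and Itgam, a chain of complement receptor 3, by 2.53 in Ccr2-/-, 2.55 in tdT+ and 2.59 in tdT- sdCAMs with the columns as named.

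In MG after LPS 1 of the list was higher and 2 were lower in WT mice, of 15 tested, where 16.7% of all genes were called, and 1 and 1 in Ccr2-/- mice, of 13 tested (19.4%). C1qbp, a multifunctional C1q-binding protein, was the one higher, at 1.41 and 1.44. In sdCAMs the numbers higher and lower were 2 and 2 of 18 in WT (6.32%) and 3 and 7 of 22 in Ccr2-/- mice (21.5%). With the columns as named they were 2 and 0 of 22 in tdT+ (13.4%) and 1 and 3 of 22 in tdT- sdCAMs (26.5%). Colec12 fell by 1.95, 1.93 and 4.22 on the log2 scale in WT, Ccr2-/- and tdT- sdCAMs. None of the list was called between BLZ945 and CTL or in the genotype interactions. Between tdT+ and tdT- sdCAMs after LPS, Itgb2 was the 1 of 22 called (1.05, adjusted p = 0.0345) with the columns as named, and with them exchanged no gene was called.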

How the data were processed

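MG and sdCAMs were sorted by flow cytometry, RNA was amplified with the SMARTer chemistry, and Nextera XT libraries were read as single reads on a HiSeq 1000. The counts were deposited as raw whole numbers per gene in 3 tables, which the authors made with featureCounts 2.0.8 after alignment with STAR 2.7.11a and bcl2fastq 2.20; DESeq2 1.46.0 is also named in the submitters' processing notes. There were no molecular identifiers, so PCR copies were counted and bounds cover counting error only. The study names more than 1 mouse reference, by date of experiment, without saying which was used for these libraries, and the strand setting was not given in the sources used here. All columns belonged to a sample of the series.

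Groups and mice were taken from the labels. In the LPS libraries of Ccr2-/- mice the title named the other cell type than the characteristic and the column name, which were followed. In these libraries the sum of the sdCAM markers was 2330 to 3733 CPM in sdCAMs and 2.262 to 6.293 CPM in MG. Cell types were compared in 1 fit of 18 libraries per genotype, LPS and BLZ945 in the 9 libraries of a cell type and genotype, tdT states in the 12 reporter sdCAM libraries, and genotypes in the 18 WT and Ccr2-/- libraries of a cell type. Genes were kept by filterByExpr, and edgeR 4.0.16 (R 4.3.3) with TMM scaling and the quasi-likelihood test gave log2 fold changes, SEs and Benjamini-Hochberg adjusted p-values over all genes tested. Calls needed an adjusted p under 0.05 and a fold over 2. Intervals are 95%. RPKM were computed from the counts with GENCODE M21 exon lengths, and bounds use 3 counts per library. Alternatives were library totals, median-of-ratios scaling, DESeq2 1.42.0, no filter, the study's filter, only the groups compared, the immediate early gene mark as a covariate or through ComBat-seq (sva 3.50.0), the mouse as a block, no fold limit, the exchange of 2 columns, and each library left out. Library totals, the exchange together with the block or without mouse 5, and the ratios of 2 members were chosen after seeing the data. The scripts were tested on simulated counts. The mouse was a natural pairing, since MG and sdCAMs came from the same animals in the labels. Deviations of the paired libraries correlated weakly (median r 0.089 in WT, 0.055 in Ccr2-/- and 0.0515 in reporter mice). All replicate pairs differed by more than counting noise.

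Named genes were the 9 members and, of the list of 47 other complement genes, at most 4 per contrast, taken by smallest p among those called whose groups did not overlap and whose mean reached 10 CPM. The members and lists were chosen with earlier results of these data known.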

Additional observations from a re-analysis of the deposited data

Results flagged for a closer look

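In untreated against CTL and LPS mice, C4b answered LPS differently in MG and sdCAMs, by the test of the interaction itself. The difference of the log2 fold changes, sdCAMs minus MG, was -5.28 in WT mice (SE 0.979, edgeR adjusted p = 0.0118) and -4.82 in Ccr2-/- mice (SE 0.505, adjusted p = 4.71e-06). C4b rose in the MG of both genotypes and fell in Ccr2-/- sdCAMs, while in WT sdCAMs its log2 fold change of -1.84 missed the threshold (adjusted p = 0.153).

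In Ccr2-/- mice the same test also singled out C1qa at -1.30 (adjusted p = 0.00029), C3ar1 at -1.80 (adjusted p = 1.58e-06) and C5ar1 at -1.53 (adjusted p = 7.45e-05). Of these, C5ar1 rose in both cell types and C3ar1 rose in MG.

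The LPS response of C5ar1 differed between tdT+ and tdT- sdCAMs by 1.61 on the log2 scale (SE 0.436, adjusted p = 0.0428) with the columns as named, and by 0.93 (adjusted p = 1) with 2 columns exchanged.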

How the results depend on the processing

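Over the alternatives other than leaving out a library, the number of members called stayed within 1.5 times its value in 174 cases and moved further in 34. Calls of single members kept their direction and side of the threshold in 464 cases, missed the threshold in 39 and reversed in 2. The reversals were C1qb and C1qc, called as higher in WT sdCAMs than MG after CTL and LPS and at -0.23 and -0.31 with library totals. In that contrast the members called went from 7 to 4 with library totals or with only the groups compared and to 1 with the immediate early gene mark as a covariate. The interaction of cell type with LPS in WT mice went from 1 to 3 with DESeq2 or library totals. LPS in WT sdCAMs went from 1 to 2 with DESeq2, library totals, only the groups compared or ComBat-seq and to 3 with no filter. LPS in tdT+ sdCAMs went from 3 to 5 with DESeq2 and 7 with no filter, and LPS in tdT- sdCAMs from 6 to 3 with the exchanged columns. The tdT contrast after LPS went from 2 to 0 with only the groups compared or with the exchanged columns, also with the mouse as a block or without mouse 5. The tdT contrast after PBS went from 0 to 2 with no filter and 1 with only the groups compared. The interaction of tdT with LPS went from 1 to 3 with DESeq2, no filter, the study's filter or library totals, and to 0 with median-of-ratios scaling or the exchanged columns. Without the fold limit the Ccr2-/- contrasts of cell type after LPS and of LPS in sdCAMs each went from 5 to 8. BLZ945 contrasts went from 0 to 1 in WT MG (no filter) and in Ccr2-/- sdCAMs (DESeq2 or no filter), and the genotype interactions in sdCAMs from 0 to 1 with no filter (LPS) and library totals (BLZ945). The causes were not tested.

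With 1 library left out in turn, members called ran from 2 to 3 and 4 to 8 for sdCAMs against MG in untreated and in LPS-treated WT mice, 5 to 6 in untreated Ccr2-/- mice, 3 to 4 for tdT- sdCAMs after PBS, and 0 to 1 for the WT interaction. For LPS they ran from 4 to 5 in WT MG, 0 to 2 in reporter MG, 2 to 6 in tdT+ and 4 to 8 in tdT- sdCAMs. For tdT they ran from 0 to 2 after LPS and 0 to 1 for the interaction, and for the genotype interaction with BLZ945 in sdCAMs from 0 to 1. The mouse as a replicate block (pairing) left 5 members called in the WT contrast after LPS in place of 7.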

Other observations

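For 4 of the genes, the genes whose group means ran most alike over the 18 groups were listed among 8762 genes, by Pearson's r as a description. C3 ran with Itgal (0.957), Tuba1c (0.948) and Irak3 (0.943). Cfb ran with Csf3 (0.924), Palld (0.918) and Steap4 (0.91), C3ar1 with Rtcb (0.946), Irf9 (0.932) and Arf6 (0.929), and C1qa with Pigx (0.933), Caml (0.918) and Tnfaip8l2 (0.915). The groups share mice, batches and scaling.

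The C1qc to C1qb ratio was also low in the BLZ945 and LPS libraries of WT and Ccr2-/- mice, which took no part in the contrasts with PBS: over all 33 LPS libraries it ran from 0.43 to 0.71.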
